A study of Homo sapiens with 3 samples.

Results

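The genes that gate the passage from G1 into S phase were described in 3 bulk RNA libraries of RWPE1 cells, a line of basal-like epithelial cells from human prostate that was immortalised with human papillomavirus HPV18. The 10 genes were the D-type cyclins CCND1, CCND2 and CCND3, their kinases CDK4 and CDK6, the inhibitors CDKN2A, CDKN2B, CDKN1B and CDKN1C, and the retinoblastoma gene RB1. They were chosen by name and matched by Ensembl identifier, and all 10 were found among the 58037 genes of the count table. All 10 also passed the filter on low values, an average of 1 or more CPM (counts per 1000000 counts of the scaled library) over the 3 libraries, as did 16600 genes in all. Each condition had 1 library: cells labelled OLFM4-wild, cells labelled OLFM4-knockout, and cells labelled OLFM4-active. By the study's methods, reporter cells were made by putting CRISPR plasmids for OLFM4, of the double nickase kind for knockout and of the activation kind for the wild reporter cells, into parental RWPE1 cells under puromycin selection. How the cells of the active-labelled library relate to the wild reporter cells is not stated. The study describes the knockout and wild reporter lines as cell clones, so a clone and its genotype cannot be told apart here. By the methods, RNA was taken from cells sorted on GFP, and ribosomal RNA was depleted. The study's RNA results set knockout reporter cells beside OLFM4-wild cells that are not called reporter cells there. Whether the wild library came from reporter cells is therefore unclear. If it did not, plasmids, selection and sorting cannot be told apart from genotype in comparisons with it.

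Depth was unequal, with 16309906 counts for OLFM4-wild, 58837147 for OLFM4-knockout and 23224216 for the active-labelled library. OLFM4, the targeted gene, had 214, 131 and 16 counts in that order, or 11.8, 2.55 and 0.670 CPM. The gene was therefore lowest in the library whose label says that it was activated, and that library is called by its label throughout. With 1 library per condition no spread between replicates could be estimated and no test could be run. The 95% intervals given in brackets cover counting error only. They are exact Clopper-Pearson intervals, except that those of shares come from the Poisson variance of the counts. Library sizes were scaled by TMM factors, and a fold change is the log2 ratio of scaled counts with an offset of 0.5 counts. The choice of scaling matters, because library totals in place of TMM lowered every log2 fold change of the knockout against the wild library by 0.35, and every one of the active-labelled against the wild library by 0.11. The defining basal markers KRT5, KRT14, KRT15 and TP63 were present in all libraries. Their summed level was 16778 CPM in the wild, 37575 in the knockout and 19775 in the active-labelled library, most of it KRT5 and KRT14. In the same order KRT15 was at 126.6, 359.2 and 97.2 CPM, and TP63 at 413.5, 472.3 and 449.9 CPM. Of 7 luminal markers, 4 lay at or under the floor of 3 counts in every library. The 7 summed to 468, 427 and 308 CPM in the wild, knockout and active-labelled libraries. Most of this was KRT8 (282.2, 231.1 and 146.4 CPM) and KRT18 (176.7, 191 and 157 CPM). The endothelial markers summed to at most 0.605 CPM. The 3 leukocyte markers summed to 31.4, 24.4 and 19.8 CPM, with PTPRC and CD3E at or under the floor, and the 5 fibroblast markers to 34.0, 31.7 and 22.9 CPM. Of the neuroendocrine markers, ENO2 was at 12.8, 3.02 and 4.10 CPM, SYP had 8, 15 and 8 counts and CHGA had 0, 14 and 14. In bulk RNA, fewer cells that carry a transcript and less of that transcript in each cell cannot be told apart.

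D-type cyclins are made in response to growth signals and bind CDK4 or CDK6. The active kinases phosphorylate the RB protein, which then releases E2F transcription factors and lets S phase genes be transcribed. The INK4 proteins p16 (from CDKN2A) and p15 (from CDKN2B) bind CDK4 and CDK6 and keep cyclin D away, whereas the CIP/KIP proteins p27 (from CDKN1B) and p57 (from CDKN1C) bind cyclin-CDK complexes. In cells that carry a high-risk papillomavirus, the viral E7 protein binds RB and marks it for degradation, and a high level of p16 is a known feature of such cells. Viral transcripts were not analysed here.

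Levels of different genes were compared as CPM per kilobase of annotated exon. In the OLFM4-wild library CDKN2B was the most abundant of the 10 genes, at 37.3 CPM per kilobase, and CDKN2A came next at 31.3. CDK4 (25.8) and RB1 (25.7) had overlapping counting intervals, as did CDK6 (20.6) and CCND1 (19.7). CCND2 followed at 17.2, CCND3 at 7.86, CDKN1C at 6.08 and CDKN1B at 3.57. The order was another one in the OLFM4-knockout library, where CCND1 (41.3), CDKN2A (39.7) and CDK4 (38.4) led, each overlapping its neighbour. RB1 (30.7), CDKN1C (28.4), CCND2 (25.4), CDK6 (24.7) and CCND3 (14.3) came next, and CDKN2B (7.47) and CDKN1B (1.92) were last. CCND1 led in the active-labelled library too, at 41.4, ahead of RB1 at 37.5. There CCND2 (31.4), CDK6 (31.3), CDK4 (29.5) and CDKN2A (27.8) formed a run in which each interval overlapped the next. At the low end of that library stood CCND3 (7.91), CDKN2B (6.14), CDKN1C (5.43) and CDKN1B (1.33). This order depends on the length taken for each gene. Over the longest annotated transcript CDKN2A, whose longest transcript is much shorter than its joined exons, came first in every library, at 115.6, 146.7 and 102.6 CPM per kilobase, and CDKN2B in the wild library was at 38.7, below CDK4 at 42.9. Set among all tested protein-coding genes and on joined exon length, CDKN2B went from the 94.6th percentile in the wild library to the 61.9th in the knockout and the 57.1st in the active-labelled library. CDKN1C went the other way in 1 library, from the 57.8th percentile to the 90.1st in the knockout and the 53.4th in the active-labelled library.

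**Figure D1:**
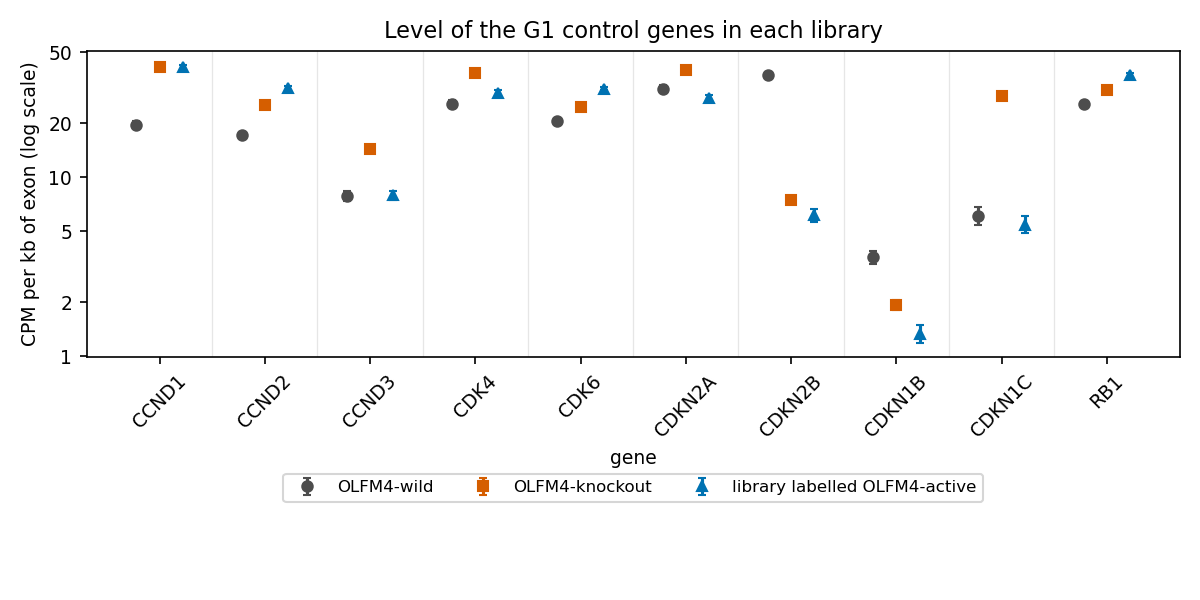
Level of each of the 10 genes in CPM per kilobase of exon, on a log axis, for OLFM4-wild, OLFM4-knockout and active-labelled cells, with 1 library per condition and 95% counting intervals. CDKN2B stands at 37.3 in the wild library and under 8 in the others, and CDKN1C at 28.4 in the knockout library against 6.08 and 5.43.

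Compared with the wild library, 2 of the 10 genes were more than 2-fold higher in the knockout library (CCND1 and CDKN1C) and 1 was more than 2-fold lower (CDKN2B). Of all 16600 genes, 5.77% were more than 2-fold higher and 7.56% more than 2-fold lower in the same comparison. The median log2 fold change of the 10 genes was 0.45, beside 0.10 over all genes tested. In the active-labelled library 1 of the 10 was more than 2-fold higher (CCND1) and 2 were more than 2-fold lower (CDKN2B and CDKN1B), where 3.78% and 6.73% of all genes were. The median of the 10 was 0.10, beside 0.05 over all genes. Both comparisons use the same wild library. With library totals in place of TMM, CCND1 left the first count and CDKN1B joined it, and CCND1 left the second. CCND1 also left the first count with upper quartile factors (0.98) and after centring on coding genes of like length and GC content (0.92). With library totals 2.22% of all genes were more than 2-fold higher and 13.9% lower in the knockout library, and 2.89% and 8.36% in the active-labelled library.

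**Figure D2:**
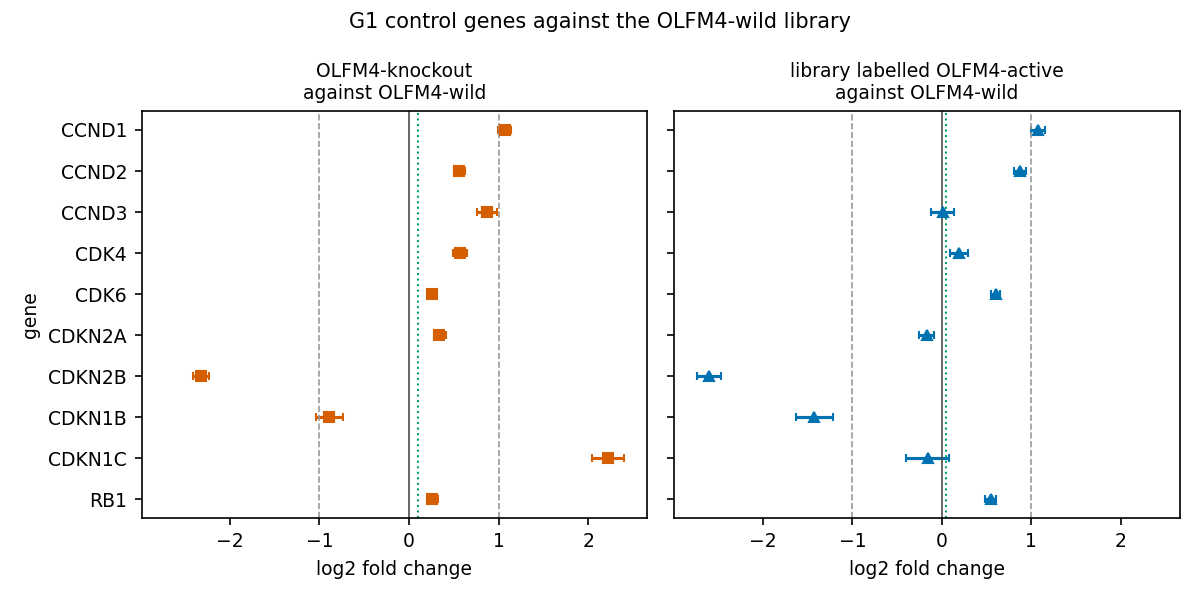
Log2 fold change of each of the 10 genes against the OLFM4-wild library, for the OLFM4-knockout library and the library labelled OLFM4-active, with 95% counting intervals and dashed lines at a 2-fold difference. CDKN2B lies at -2.32 and -2.60, CDKN1C at 2.22 and -0.16, and CCND1 at 1.07 in both.

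Of the D-type cyclins, CCND1 was about as high in the knockout library as in the active-labelled one. The gene (GRCh38 chr11:69641156-69654474, plus strand) had 1705 counts in the wild library, 10100 in the knockout library and 4707 in the active-labelled library, or 93.8, 196.8 and 197 CPM. Its log2 fold change was 1.07 in the knockout (0.99 to 1.14) and 1.07 in the active-labelled library (0.99 to 1.15), and 0.72 and 0.95 with library totals. Both libraries were thus higher than the wild library under either scaling, and the interval of the difference between them ran from -0.05 to 0.05 with TMM. With library totals that difference was -0.24. CCND1 stood higher in its fold change than 95.3% of tested genes in the knockout and 96.9% in the active-labelled comparison. MYC, whose protein is a transcription factor that acts on many cell cycle genes, was at 274, 510.3 and 486 CPM, with log2 fold changes of 0.90 (0.85 to 0.94) and 0.83 (0.78 to 0.87).

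CCND2 and CCND3, the other two D-type cyclins, each differed between the knockout and active-labelled libraries. CCND2 (chr12:4269771-4305353, plus strand) had 2494, 10395 and 5987 counts in the wild, knockout and active-labelled libraries, or 137, 202.5 and 250.6 CPM. It was highest in the active-labelled library, with log2 fold changes of 0.56 (0.50 to 0.62) in the knockout and 0.87 (0.80 to 0.94) in the active-labelled library. CCND3 (chr6:41934934-42050357, minus strand) had 823, 4238 and 1089 counts, or 45.3, 82.6 and 45.6 CPM. It was higher in the knockout library, at a log2 fold change of 0.87 (0.76 to 0.98), and level with the wild library in the active-labelled one, at 0.01 (-0.12 to 0.14), with the sign depending on the scaling. The D cyclins together came to 44.8 CPM per kilobase in the wild library, 81.0 in the knockout and 80.7 in the active-labelled library. The share of a gene in such a sum, unlike the sum itself, does not depend on library scaling, and CCND1 held 44.04% in the wild (42.6 to 45.5), 51.0% in the knockout and 51.3% in the active-labelled library. CCND3 kept 17.6% and 17.7% in the wild and knockout libraries and had 9.81% (9.26 to 10.4) in the active-labelled library. Counted over the longest transcript instead, the CCND3 shares were 31.0%, 31.2% and 18.7%, lowest again in the active-labelled library.

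CDK4 and CDK6, which encode the kinase partners of the D cyclins, moved in unequal amounts. CDK4 (chr12:57747727-57756013, minus strand) had 1452, 6094 and 2178 counts in the wild, knockout and active-labelled libraries, or 79.9, 118.7 and 91.2 CPM. CDK6 (chr7:92604921-92836573, minus strand) had 4579, 15527 and 9145 counts, or 252, 302.5 and 382.7 CPM. CDK4 was thus highest in the knockout library and CDK6 in the active-labelled one. The log2 fold changes of CDK4 were 0.57 (0.49 to 0.65) in the knockout and 0.19 (0.09 to 0.29) in the active-labelled library. Those of CDK6 were 0.26 (0.22 to 0.31) and 0.60 (0.55 to 0.65), and the first of them became -0.09 with library totals. With library totals those of CDK4 were 0.22 and 0.07, the latter (-0.02 to 0.17) within counting error. For each 100 counts of CDK4 there were 315 of CDK6 in the wild library, 254.8 in the knockout and 419.9 in the active-labelled library, a ratio that does not depend on library scaling.

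CDK4 was the only one of the 7 members with a RefSeq promoter window (GRCh38.p14, no entry for CCND1, CCND2 or CDKN1C) whose 250 bases before a start site held the E-box CACGTG, the binding sequence of MYC with its partner MAX. It held 3 copies, whereas 6.34% of 35116 windows of that length held any. The pieces with these copies are shown because MYC differed between the libraries as given above. Both are on the minus strand, at chr12:57752499-57752528 and chr12:57752384-57752413, written from 5′ to 3′ with the E-box in capitals.
CDK4, positions -218 to -189 from the start: gtCACGTGtgatagcaacagatCACGTGgc
CDK4, positions -103 to -74 from the start: gtCACGTGcccagaacgtccggcgttcgcc
A match of letters does not show that a factor was bound in these cells. In the knockout and active-labelled libraries MYC stood at log2 fold changes of 0.90 and 0.83, and CDK4 at 0.57 and 0.19, all with TMM. Whether MYC bears on the CDK4 level was not tested. The sequences searched for E2F sites (TTTCCCGC, TTTGGCGC, TTTCGCGC and TTTGCCGC, both strands) and for a FOXO site (TGTTTAC, both strands) were in none of the member windows. Of all windows, 2.79% held an E2F sequence and 2.98% the FOXO sequence. The RB1 window (chr13:48476200-48476449) lies inside the gene, which starts at position 48303744. The bases before that start were therefore not searched for any of these sites, the E-box included. The windows of CDK4, CDKN1B and CCND3 also precede start sites that lie inside the annotated gene. For these genes the bases before the outermost annotated start were not searched either.

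The INK4 genes CDKN2A and CDKN2B are neighbours on chromosome 9, and their levels parted. CDKN2B (chr9:22002903-22009305, minus strand) had 2710 counts in the wild library, 1533 in the knockout and 587 in the active-labelled library, or 149, 29.9 and 24.6 CPM. It was lower in both other libraries, by 4.99-fold in the knockout (log2 fold change -2.32, -2.41 to -2.23) and by 6.07-fold in the active-labelled library (-2.60, -2.73 to -2.47). Only 1.02% of tested genes had a lower fold change in the first comparison, and 0.783% in the second. With library totals the values were -2.67 and -2.72. The count itself was lower in the knockout library although that library held more counts in all than the wild library.

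CDKN2A (chr9:21967752-21995301, minus strand) had 2209, 7923 and 2580 counts in the wild, knockout and active-labelled libraries, or 121.6, 154.3 and 108 CPM. The row joins the transcripts for p16 with those for ARF, a protein read from another frame of the same locus that stabilises p53, and the counts do not separate them. The log2 fold change was 0.34 (0.28 to 0.41) in the knockout library and -0.17 (-0.25 to -0.09) in the active-labelled library, and the knockout value was -0.01 with library totals. CDKN2A thus stayed within 2-fold of the wild library in both. For each 100 counts of CDKN2A there were 122.7 of CDKN2B in the wild library (115.9 to 129.8), 19.4 in the knockout (18.3 to 20.4) and 22.8 in the active-labelled library (20.8 to 24.9).

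Other genes of the region on chromosome 9 did not show a difference of that size. MTAP, which encodes an enzyme of methionine salvage and lies on the far side of CDKN2A, had log2 fold changes of 0.34 and 0.29. CDKN2B-AS1, the antisense RNA also called ANRIL that overlaps CDKN2B on the opposite strand, had 131, 281 and 124 counts in the wild, knockout and active-labelled libraries. Its log2 fold changes were -0.40 (-0.70 to -0.09) and -0.47 (-0.84 to -0.11), smaller than those of CDKN2B. The authors counted with strand, so that reads of the sense and antisense genes were kept apart as far as the library was stranded. Another opposite-strand gene that covers both INK4 genes, ENSG00000264545, had 197, 992 and 403 counts and log2 fold changes of 0.83 and 0.64. CDKN2A-DT and DMRTA1 had at most 18 and 35 counts in any library and did not pass the filter on low values.

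The promoter window of CDKN2B is shown because this gene had the widest range of the 10 over the libraries. It is the 250 bases before the start (GRCh38.p14, chr9:22009306-22009555, minus strand), with the 2 GC boxes (GGGCGG or its reverse complement) in capitals.
CDKN2B promoter: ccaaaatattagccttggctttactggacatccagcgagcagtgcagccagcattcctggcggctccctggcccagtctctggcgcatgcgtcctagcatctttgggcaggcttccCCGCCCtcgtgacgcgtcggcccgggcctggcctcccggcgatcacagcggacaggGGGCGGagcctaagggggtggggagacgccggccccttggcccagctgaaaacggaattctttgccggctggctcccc
The GC box, a binding sequence of SP1, is common: 42.6% of all windows of this length held at least 1 copy.

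CDKN1B and CDKN1C, the CIP/KIP genes of the set, differed in opposite directions in the knockout library. CDKN1B (chr12:12685498-12722369, plus strand) had 601 counts in the wild, 914 in the knockout and 294 in the active-labelled library, or 33.1, 17.8 and 12.3 CPM. It was lower in both other libraries, at log2 fold changes of -0.89 (-1.04 to -0.74) in the knockout and -1.43 (-1.63 to -1.22) in the active-labelled library, the latter 2.69-fold lower. The knockout value was -1.25 with library totals, and so passed 2-fold there. The promoter window of CDKN1B (GRCh38.p14, chr12:12717118-12717367, plus strand) is set beside that of CDKN2B because these were the 2 members lower in both libraries. The CDKN1B window precedes a start site inside the annotated gene, and its 1 GC box is in capitals.
CDKN1B promoter: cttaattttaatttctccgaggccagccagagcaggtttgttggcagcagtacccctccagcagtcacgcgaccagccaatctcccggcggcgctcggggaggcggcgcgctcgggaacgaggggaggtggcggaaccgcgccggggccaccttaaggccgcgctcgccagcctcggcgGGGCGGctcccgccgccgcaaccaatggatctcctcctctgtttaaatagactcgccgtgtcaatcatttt
GC made up 66.4% of the CDKN2B window and 64.4% of the CDKN1B window.

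CDKN1C (chr11:2883213-2885775, minus strand), an imprinted gene in the KCNQ1 cluster that is expressed mainly from the maternal copy, had 274 counts in the wild, 3611 in the knockout and 322 in the active-labelled library. These were 15.1, 70.3 and 13.5 CPM. It was high in the knockout library alone, 4.66-fold above the wild library (log2 fold change 2.22, 2.04 to 2.40) and 5.21-fold above the active-labelled library (2.38, 2.22 to 2.55). Between the active-labelled and the wild library the log2 fold change was -0.16 (-0.40 to 0.08), or -0.28 (-0.51 to -0.04) with library totals. In the knockout against the wild library 99.6% of tested genes had a lower fold change, and 99.9% in the knockout against the active-labelled library. For each 100 counts of CDKN1B there were 45.6 of CDKN1C in the wild library (39.4 to 52.7), 395 in the knockout (367 to 425) and 109.5 in the active-labelled library (93.2 to 128.7).

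The knockout library also differed from the wild library by transcript length and base composition, which touches CDKN1C. Its exons span 2480 bases with a GC content of 67.3%. Over coding genes split into 5 equal bins of exon length, the median log2 fold change in the knockout library went from 0.33 in the bin of the shortest to -0.11 in that of the longest. The 879 coding genes that share both the length bin and the GC bin of CDKN1C had a median of 0.34, and CDKN1C lay 1.88 above it. Against the active-labelled library that median was 0.50, and CDKN1C lay 1.88 above it as well. The summed basal markers, mostly KRT5 and KRT14, were also highest in the knockout library, and their part in the CDKN1C level was not tested.

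Genes around CDKN1C were not higher together. TSSC4 had 261, 1700 and 374 counts in the wild, knockout and active-labelled libraries and log2 fold changes of 1.20 (1.02 to 1.40) and 0.12, the first of which was 0.85 with library totals. PHLDA2, a growth-restraining gene of the same imprinted cluster, stood at 0.86 and 0.82. KCNQ1OT1, the long noncoding RNA of the paternal copy of the cluster, had 486, 1023 and 904 counts and log2 fold changes of -0.43 and 0.50. It was thus lower in the knockout library, where CDKN1C was higher. For each 100 counts of KCNQ1OT1 there were 56.4 of CDKN1C in the wild library, 353 in the knockout and 35.6 in the active-labelled library. Of 8 listed neighbours 7 passed the filter on low values, and TSSC4 was the 1 beyond 2-fold in the knockout library. That is 1 of 7, where 5.77% of all genes were more than 2-fold higher and 7.56% lower. With library totals 0 of the 7 passed 2-fold. KCNQ1 itself did not pass, with 9, 53 and 3 counts.

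**Figure D3:**
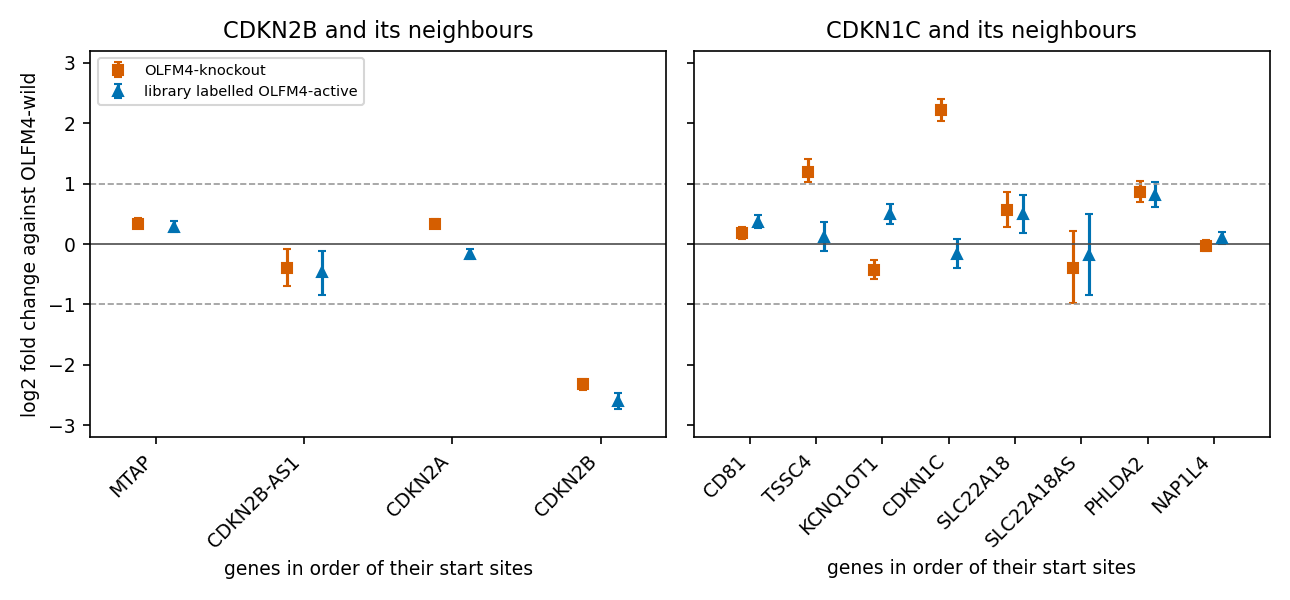
Log2 fold change against the OLFM4-wild library for CDKN2B (left) and CDKN1C (right) and the listed neighbours that passed the filter, in order of their start sites, for the OLFM4-knockout library and the library labelled OLFM4-active, with 95% counting intervals and dashed lines at a 2-fold difference. CDKN2B is the gene on the left that lies beyond -1, at -2.32 and -2.60, while MTAP and CDKN2A lie between -0.17 and 0.34. On the right CDKN1C and TSSC4 lie above 1 in the knockout library.

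The inhibitor sum covers the members CDKN2A, CDKN2B, CDKN1B and CDKN1C only. It came to 78.2 CPM per kilobase in the wild library, 77.5 in the knockout and 40.7 in the active-labelled library. CDKN1A, CDKN2C and CDKN2D are not in it. In the same order of libraries CDKN1A stood at 48.31, 47.04 and 34.45 CPM per kilobase. CDKN2C stood at 7.95, 5.758 and 3.536, and CDKN2D at 5.448, 2.809 and 1.502. Which of the wild and knockout sums was higher depended on the length used, since over the longest transcript they were 169.7 and 194.9, and on the scaling, which sets the knockout sum against the wild one. CDKN2B held 47.7% of the sum in the wild library, 9.64% in the knockout and 15.1% in the active-labelled library. CDKN1C held 7.77%, 36.6% and 13.4% in the same order, and CDKN2A 40.0%, 51.3% and 68.3%. CDKN1B held at most 4.57%. Shares also depend on the length taken for each gene: over the longest transcript CDKN2A led in all libraries, at 68.1%, 75.3% and 86.4%, and CDKN2B held 22.8%, 3.98% and 5.37%. In both versions the CDKN2B share was highest in the wild library and the CDKN1C share highest in the knockout library.

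**Figure D4:**
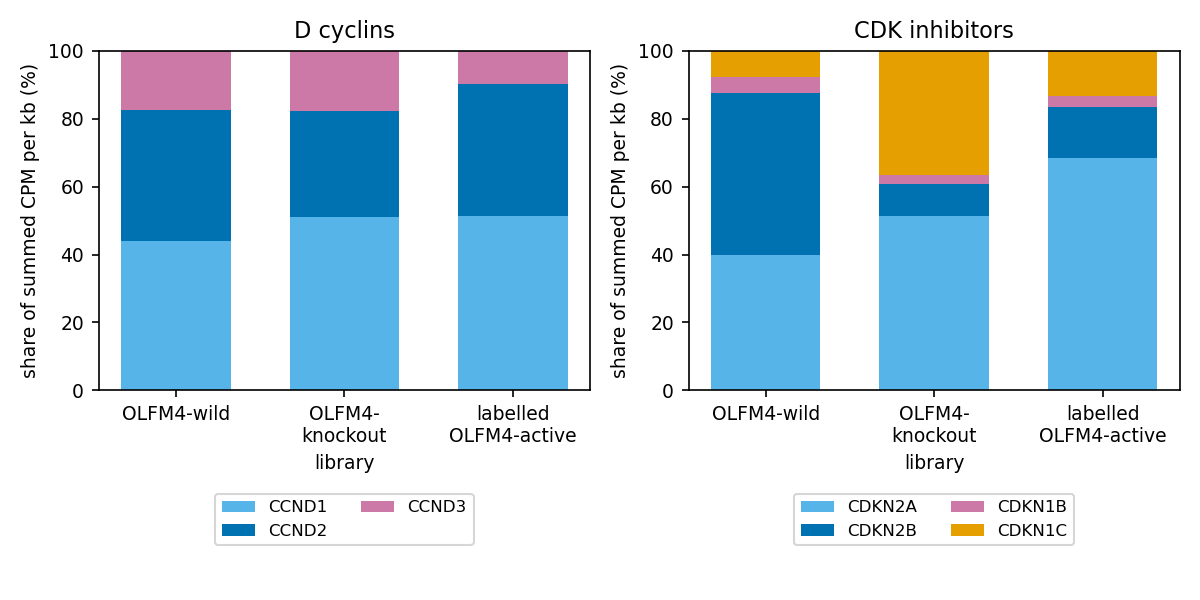
Share of each gene, in percent, in the summed level (CPM per kilobase of exon) of the D cyclins and of the CDK inhibitors, as stacked bars for each of the 3 libraries. The inhibitor bars hold CDKN2A, CDKN2B, CDKN1B and CDKN1C only. CDKN2B fills 47.7% of the inhibitor bar in the wild library and 9.64% in the knockout library, where CDKN1C fills 36.6%.

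RB1 (chr13:48303744-48599436, plus strand), whose protein is the substrate of the cyclin D kinases, had 3001, 10125 and 5764 counts in the wild, knockout and active-labelled libraries. These were 165, 197.2 and 241 CPM, with the highest level in the active-labelled library. The log2 fold change was 0.26 (0.20 to 0.32) in the knockout library, which became -0.10 with library totals, and 0.55 (0.48 to 0.61) in the active-labelled library. RB1 mRNA was thus present in the line at a level above at least 91.1% of tested coding genes in every library. LPAR6, a receptor gene that lies inside an RB1 intron on the opposite strand, had 240, 257 and 108 counts and log2 fold changes of -1.40 and -1.54, opposite in sign to those of RB1.

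Other genes overlap the members on the opposite strand. LTO1, which overlaps CCND1, had 420, 2133 and 949 counts and log2 fold changes of 0.84 and 0.78. GPR19, which overlaps CDKN1B, had 49, 38 and 18 counts and values of -1.86 and -1.81. CDK6-AS1 had 8, 96 and 46 counts, with values of 2.01 and 2.06 that rest on few counts in the wild library. TSPAN31, at CDK4, had 0.39 and 0.17, and RCBTB2, at RB1, had 0.62 and 0.46. On the same strand the overlapping genes of the count table were small RNAs with at most 17 counts, such as MIR6759 at CDK4. The listed pseudogenes of CCND2, CCND3 and CDK4 had 0 counts.

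Between the knockout and the active-labelled library, 1 of the 10 genes differed by more than 2-fold (CDKN1C, higher in the knockout) and 0 were lower by that much. Of all genes, 2.95% were more than 2-fold higher and 3.39% more than 2-fold lower in the knockout than in the active-labelled library. CCND3 (0.86, 0.76 to 0.95), CDKN1B (0.53, 0.34 to 0.73), CDKN2A (0.52, 0.45 to 0.58), CDK4 (0.38, 0.31 to 0.45) and CDKN2B (0.28, 0.14 to 0.42) were higher in the knockout library. CDK6 (-0.34, -0.38 to -0.30), CCND2 (-0.31, -0.35 to -0.26) and RB1 (-0.29, -0.34 to -0.24) were lower. These 8 kept their direction under every scaling tried. With TMM these differences exceed counting error. With library totals that of CDKN2B was 0.04 (-0.09 to 0.18) and did not. In this comparison the median over coding genes rose from -0.07 in the bin of lowest GC content to 0.39 in the highest. After centring on coding genes of like length and GC content, CDKN1B was larger, at 0.74. The others were smaller: CCND3 0.49, CDKN2A 0.25, CDKN2B 0.19, CDK4 0.12, CDK6 -0.14, RB1 -0.19 and CCND2 -0.26. Whether the differences exceed the spread between cultures could not be assessed.

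The other genes of the G1/S pathway were read from a list of 27 cyclin E, CDK2, E2F, RB-family, inhibitor and ubiquitin ligase genes, all of which passed the filter. In the knockout library 1 was more than 2-fold higher and 1 more than 2-fold lower than in the wild library, where 5.77% and 7.56% of all genes were, with a median log2 fold change of 0.19. With library totals 0 were higher and 3 lower (CDKN2D, E2F7 and E2F8), and the median was -0.16. CCNE1, which encodes a cyclin E that activates CDK2 after the RB step, was the higher one. It had 114, 788 and 177 counts, or 6.27, 15.4 and 7.41 CPM, and a log2 fold change of 1.29 (1.01 to 1.59) in the knockout library, or 0.93 with library totals. E2F8, an atypical E2F that represses E2F target genes, was the lower one. It had 438, 583 and 298 counts and a log2 fold change of -1.09 (-1.27 to -0.90). CCNE2, the second cyclin E gene, stood at 0.62 in the knockout and -0.18 in the active-labelled library, and CDK2 at 0.01 (-0.07 to 0.09) and -0.25.

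In the active-labelled library 0 of the 27 were more than 2-fold higher and 3 more than 2-fold lower than in the wild library, where 3.78% and 6.73% of all genes were, with a median of -0.02. With library totals E2F8 joined them. All 3 were also lower in the knockout library, by less. CDKN2D, which encodes the INK4 protein p19, had 149, 217 and 54 counts and log2 fold changes of -1.85 (-2.34 to -1.40) in the active-labelled and -0.96 in the knockout library. CDKN2C, which encodes p18 of the same family, had 436, 892 and 255 counts and stood at -1.17 (-1.40 to -0.94) and -0.47. Of the INK4 family, CDKN2B, CDKN2C and CDKN2D were thus lower than in the wild library in both comparisons under either scaling, and CDKN2A was at 0.34 in the knockout, where its sign turned with library totals. E2F2, an activator E2F, had 584, 1071 and 262 counts and stood at -1.55 (-1.77 to -1.34) and -0.62. CDKN1A, which encodes the CIP/KIP protein p21 and is a classic p53 target, had 2630, 7235 and 2466 counts. Its log2 fold change was -0.04 (-0.10 to 0.03) in the knockout and -0.49 in the active-labelled library, or -0.39 and -0.60 with library totals.

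**Figure D5:**
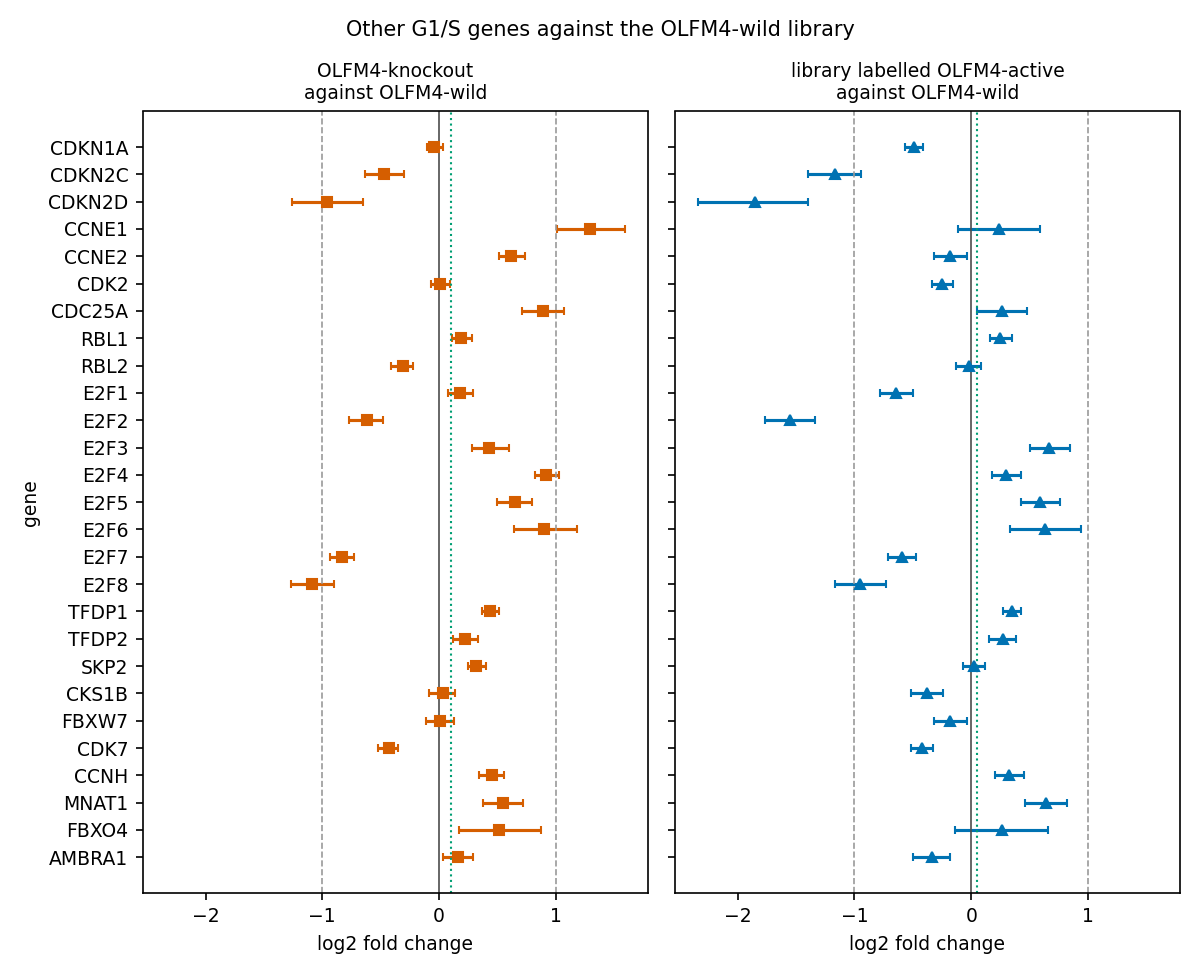
Log2 fold change of the 27 other G1/S genes against the OLFM4-wild library, for the OLFM4-knockout library and the library labelled OLFM4-active, with dashed lines at a 2-fold difference. CCNE1 lies above 1 in the knockout library, and CDKN2D, E2F2 and CDKN2C lie below -1 in the active-labelled library.

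Genes transcribed by E2F once RB is inactivated form the next step of the pathway. Of 24 such genes, 2 were more than 2-fold higher in the knockout library and 0 lower (all genes 5.77% and 7.56%), with a median log2 fold change of 0.41 beside 0.10 over all genes. With library totals 0 of the 24 passed 2-fold in either direction, and the median was 0.06 beside -0.26. The higher ones were CCNE1, which is also in the list above, and MCM2, a subunit of the replicative helicase. MCM2 had 3095, 18458 and 4877 counts, with a log2 fold change of 1.08 (1.02 to 1.13), or 0.73 with library totals. In the active-labelled library 0 were more than 2-fold higher and 2 lower (all genes 3.78% and 6.73%), with a median of 0.02. These were E2F2 and CDT1, a factor that loads the helicase, at -1.09 (-1.21 to -0.98).

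Polycomb proteins are known to silence the INK4 locus, so 14 genes of that system, the opposing demethylase among them, were read beside it. In the knockout library 0 were more than 2-fold higher and 1 lower: CBX7, with 82, 104 and 68 counts and a log2 fold change of -1.16 (-1.59 to -0.72). That is 1 of 14, where 7.56% of all genes were lower, and with library totals PCGF2 and PHC3 joined it. In the active-labelled library 0 passed 2-fold in either direction. The medians were -0.09 and 0.08. BMI1, the Polycomb gene best known for holding down CDKN2A, stood at -0.34 and -0.39, and EZH2, the methyltransferase, at -0.51 and -0.45. With TMM others were higher in both, among them EED (0.51 and 0.85) and RNF2 (0.29 and 0.73), and 6 and 9 of the 14 lay above 0. With library totals RNF2 was at -0.06 in the knockout library, and EED at 0.15 and 0.73 in the knockout and active-labelled libraries. The medians of the 14 were then -0.45 and -0.03, beside -0.26 and -0.07 over all genes. Whether any of the 14 bears on the INK4 levels was not tested.

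CDKN2B had the widest range of log2 CPM of the 10 genes, 2.60. The 5 coding genes whose pair of log2 fold changes lay closest to that of CDKN2B were sought among 9661 coding genes that averaged 10 CPM or more over the 3 libraries, and 4 are given here, the closest of the 5, a Y-linked gene, being left out. DAPK1, a death-associated kinase gene, stood at -2.31 in the knockout and -2.51 in the active-labelled library. OAS1, an interferon-induced gene of the antiviral response, stood at -2.37 and -2.68. SLPI, a secreted inhibitor of leukocyte proteases, was at -2.44 and -2.65, and TNFSF10, which encodes the death ligand TRAIL, at -2.41 and -2.73. The distances of the 4 from CDKN2B on this scale ran from 0.10 to 0.15, that of the gene left out was 0.08, and with 3 libraries such likeness is a description of a pair of values.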

How the data were processed

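The deposited table holds raw counts per gene, which the authors made from stranded, ribosomal RNA-depleted libraries: reads were trimmed with cutadapt and aligned to GRCh38 with HISAT2, and uniquely mapped, reversely stranded pairs were counted with featureCounts. The GENCODE release behind the counts is not given in the sources used here. Positions and exon lengths came from GENCODE version 44, which holds 56948 of the 58037 identifiers. Counts were scaled with TMM in edgeR 4.0.16, with the offset of 0.5 counts of voom, and genes averaging 1 CPM or more were kept. Intervals were computed with scipy 1.17.1 at 95%. The procedure was tested on simulated data. Named genes were all 10 members, genes of the other lists beyond 2-fold (at most 5 per list), CDKN1A, CCNE1, CCNE2, CDK2, OLFM4, MYC, overlapping genes and the nearest genes to the widest-ranging member. BMI1, EZH2, EED, RNF2 and neighbours within 2-fold were named besides, after their values were seen. Members and lists were chosen with earlier results of these data known. Promoters were RefSeq sequences, matched by symbol.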

Additional observations from a re-analysis of the deposited data

How the results depend on the processing

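Alternatives were library totals, DESeq2 size factors or upper quartile factors in place of TMM, offsets of 1 or 5 counts, libraries thinned to the smallest total, library sizes without the 10 most abundant genes, other filters on low values and, added after seeing the data, centring on genes of like length and GC content. No call of a member beyond 2-fold changed direction. The median log2 fold change of the 10 genes in the knockout library was 0.10 with library totals and 0.37 with upper quartile factors, and in the active-labelled library -0.02 with library totals. Among other G1/S genes, 1 lay beyond 2-fold in the knockout library (E2F8) when a mean of 10 CPM was required. Over 9 settings 7 of 10 members kept their sign in the knockout and 9 of 10 in the active-labelled comparison; CDK6, CDKN2A and RB1 did not in the first and CCND3 did not in the second. CDKN2B ranged from -2.67 to -2.30 and from -2.73 to -2.58, CDKN1C from 1.87 to 2.23 in the knockout library, and CDKN1B from -1.25 to -0.75 there. No paired analysis was possible because each condition has 1 library, which also left no replicate to leave out. Depth limits low genes most: 3 counts are 0.165 CPM in the wild library.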
